A study of Mus musculus with 24 samples.

Results

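Neutrophil granulocytes are made in the bone marrow in steps, and the messenger RNA of their granule proteins marks each step. The 33 granulocyte genes described here were taken from the platform's gene symbols and sorted into 4 classes by the step at which they are known to be used: 3 transcription factors, 5 primary granule genes, 12 secondary granule genes and 13 genes of mature neutrophils. They are 33 of 19938 genes named by 1 symbol on the arrays, and of the 15647 of these that were tested. Each had a single probe set of its own, so no choice between probe sets was needed.

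The samples were bone marrow B cells, by their labels, of 24 mice that had all received 2 Gy of ionizing radiation. Marrow bearing tumor was taken as the leukemic sample from 10 mice heterozygous for Pax5 (Pax5+/-) and 4 wild-type (WT) mice, and the preleukemic sample, from 7 Pax5+/- and 3 WT mice, was made up of pro/pre-B cells. Pax5 is the transcription factor that holds cells to the B lineage, and the study set leukemic against preleukemic cells of each genotype to follow its part in radiation-induced B-cell acute lymphoblastic leukemia. The labels give 3 weeks after irradiation for every sample, leukemic ones included, and name neither strain nor age nor batch. Stage and material cannot be told apart, because tumor-bearing marrow is set against pro/pre-B cells. In such bulk samples fewer granulocytes and less RNA per granulocyte cannot be told apart either.

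Values are the deposited log2 signals of single arrays, 1 array a mouse, so a difference of 1 is a doubling of signal. A value at or below the 30th percentile of its array (5.18 to 5.35) is called dim. Leukemic arrays had medians of 6.10 to 6.22 and preleukemic arrays of 6.23 to 6.30. The mean over the 11 B-lineage genes measured ran from 8.83 to 10.34 in leukemic Pax5+/-, from 8.17 to 9.64 in leukemic WT, from 10.94 to 11.26 in preleukemic Pax5+/- and from 11.02 to 11.42 in preleukemic WT arrays. Preleukemic WT array 1 stood apart from the other 2 arrays of its group in the granulocyte genes, and the counts and members named for comparisons with this group are given with and without it. It was set apart after its values were seen.

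Granulocyte precursors fill their granules in order. Promyelocytes make primary (azurophil) granules with myeloperoxidase and serine proteases, myelocytes and metamyelocytes make secondary (specific) and then tertiary (gelatinase) granules, and segmented neutrophils carry receptors for chemoattractants and growth factors. C/EBP and PU.1 family factors drive these genes, and Pax5 represses myeloid genes in B-cell progenitors.

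Promoters of 29 of the 33 members were matched in the RefSeq table for GRCm38.p6. They are shown for Elane, Ngp, Lcn2, S100a8 and Trem1, since these genes carry the main results on the primary granule, secondary granule and mature classes, and since the members of each class largely moved together across arrays. Each run is the 150 bases before the gene's start, read 5′ to 3′ in the direction of the gene. Capitals mark matches to the core motifs searched: TTGCNNAA for C/EBP and GAGGAA for PU.1, both on either strand, and TATAAA for a TATA box on the gene's own strand.
Elane, chr10:79886162-79886311, plus strand: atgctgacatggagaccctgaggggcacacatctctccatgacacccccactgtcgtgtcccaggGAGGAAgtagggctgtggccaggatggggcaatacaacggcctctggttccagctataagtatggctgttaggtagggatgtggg
Ngp, chr9:110419658-110419807, plus strand: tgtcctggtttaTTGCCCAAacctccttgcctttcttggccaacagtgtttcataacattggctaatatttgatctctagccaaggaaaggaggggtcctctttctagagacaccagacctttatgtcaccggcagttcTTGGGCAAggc
Lcn2, chr2:32387740-32387889, minus strand: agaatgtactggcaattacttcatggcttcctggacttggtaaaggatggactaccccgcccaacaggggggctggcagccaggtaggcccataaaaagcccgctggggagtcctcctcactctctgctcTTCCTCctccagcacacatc
S100a8, chr3:90668921-90669070, plus strand: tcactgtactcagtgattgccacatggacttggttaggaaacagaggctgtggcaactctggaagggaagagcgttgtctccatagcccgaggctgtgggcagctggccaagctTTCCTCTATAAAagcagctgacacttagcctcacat
Trem1, chr17:48232589-48232738, plus strand: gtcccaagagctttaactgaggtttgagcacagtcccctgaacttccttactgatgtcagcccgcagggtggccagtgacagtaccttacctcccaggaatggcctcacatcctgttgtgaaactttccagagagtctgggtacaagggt
In S100a8 the PU.1 and TATA box matches lie side by side without overlap. Over the 250 bases before the start, the C/EBP letters were found in 10 of the 29 members, against 9.56% of 32851 RefSeq promoters. By class these were 5 of 10 secondary granule, 4 of 12 mature, 1 of 2 transcription factor and 0 of 5 primary granule genes. A member counted if any promoter listed for it matched, while the shares over all are of single promoters, so the units differ. The PU.1 letters were found in 18 of the 29, against 23.3% of all promoters, with 4 of 5 in the primary granule, 6 of 10 in the secondary granule and 8 of 12 in the mature class. The TATA box letters were found in 6 of the 29, against 7.59% of all. A match describes letters in this window and is not a binding site.

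**Figure D1:**
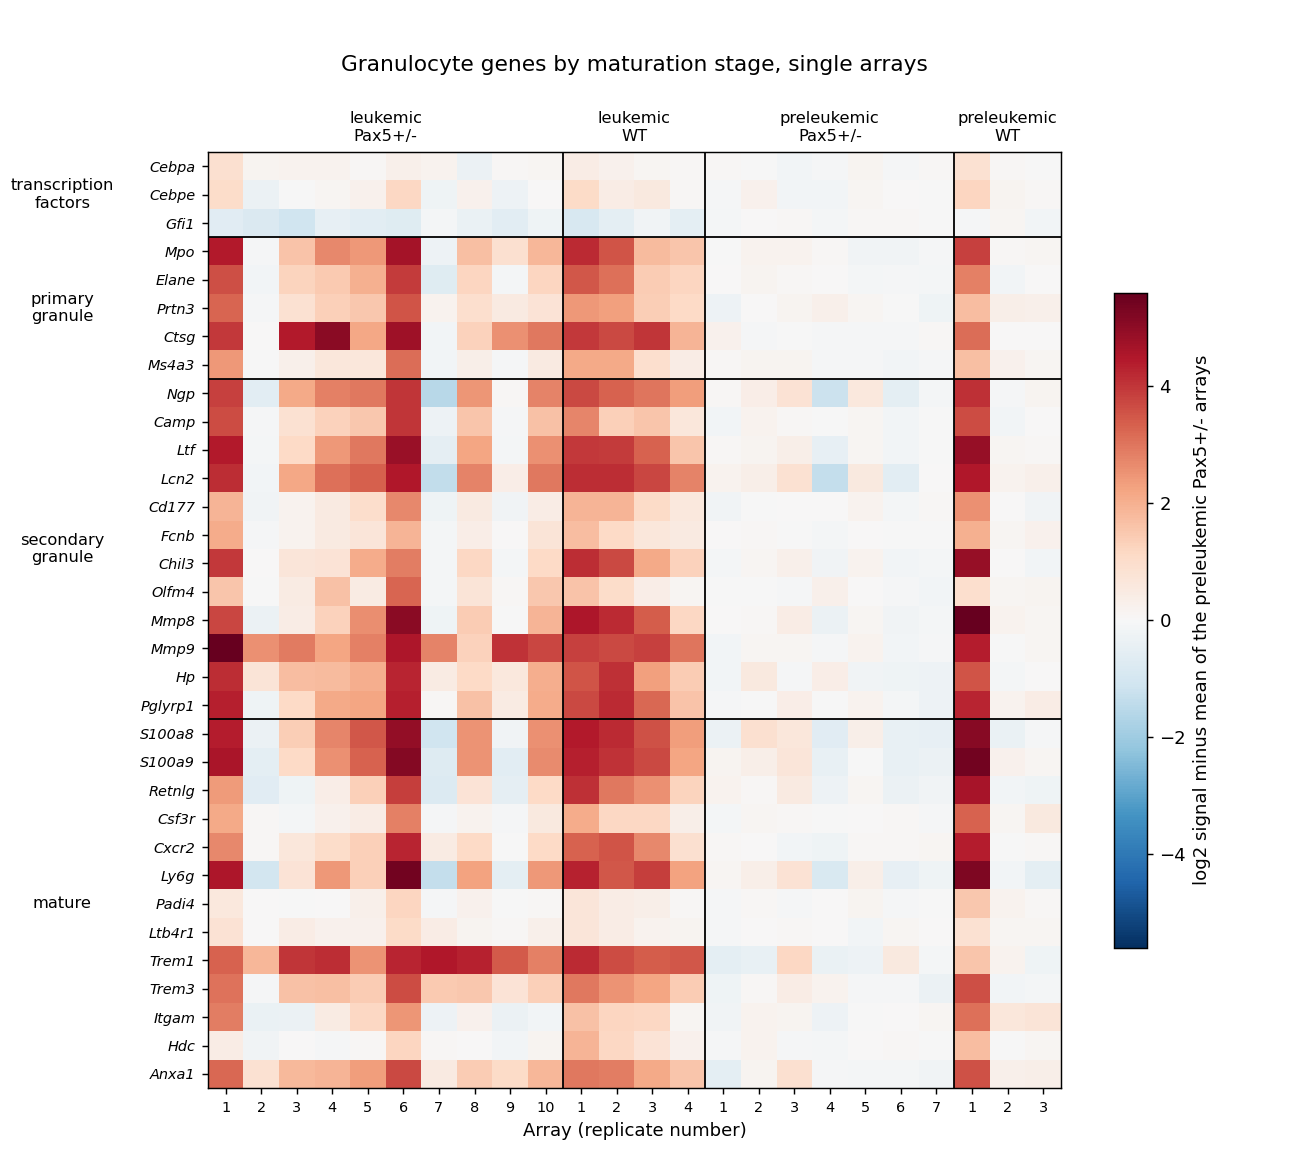
Each row is a member, each column an array by group and replicate number, and the colour is the log2 signal minus the mean of the 7 preleukemic Pax5+/- arrays. Leukemic Pax5+/- arrays 1 and 6, leukemic WT arrays 1 and 2 and preleukemic WT array 1 are high across the granule and mature classes. Leukemic Pax5+/- arrays 2, 7 and 9 are near or below 0 in most genes, with Ngp at -1.57 in array 7 and Ly6g at -1.04 in array 2. Gfi1 runs the other way.

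Across most single arrays the primary granule, secondary granule and mature classes were high or low together. Leukemic Pax5+/- array 6 had the highest class medians of its group, 3.90, 4.13 and 3.70 above the preleukemic Pax5+/- mean for primary granule, secondary granule and mature genes, and array 1 followed with 3.62, 3.90 and 2.85. Arrays 3, 4, 5, 8 and 10 lay between, with secondary granule medians of 0.98, 1.70, 2.14, 1.36 and 1.95. In arrays 2, 7 and 9 the secondary granule medians were -0.10, -0.18 and 0.03, so that 3 of the 10 leukemic Pax5+/- arrays had no raised level of the class as a whole. The classes parted in array 9. Its primary granule median was 0.48, above the highest preleukemic Pax5+/- median of 0.14, while its mature median was -0.07. The 4 leukemic WT arrays had secondary granule medians of 3.69, 3.70, 2.65 and 1.35, all of them raised. Preleukemic Pax5+/- arrays ran from -0.17 to 0.20 in this median. Preleukemic WT array 1 had 4.18, the highest of all 24 arrays, whereas arrays 2 and 3 had 0.06 and 0.11.

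**Figure D2:**
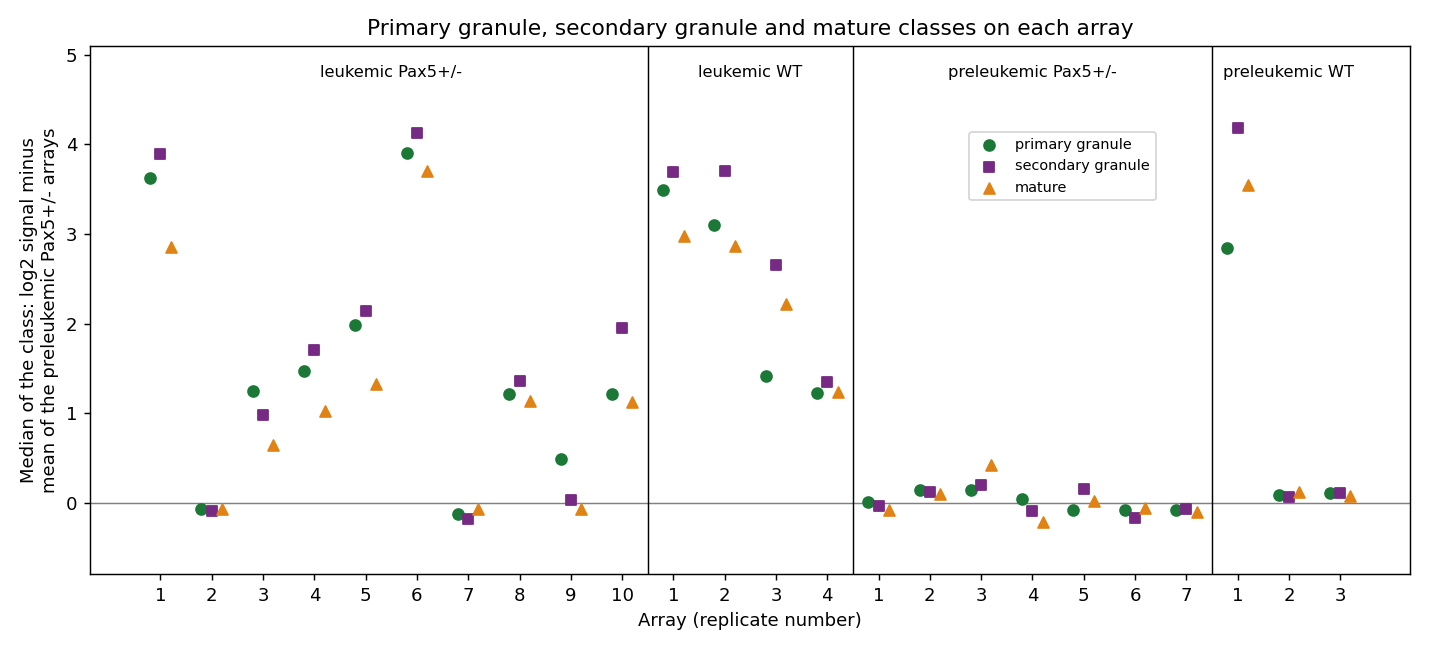
The y axis is the median over the genes of a class of the log2 signal minus the mean of the preleukemic Pax5+/- arrays, the x axis the array, and the symbols the 3 classes. The secondary granule median reaches 4.18 in preleukemic WT array 1 and 4.13 in leukemic Pax5+/- array 6, and lies at -0.10, -0.18 and 0.03 in leukemic Pax5+/- arrays 2, 7 and 9.

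In Pax5+/- mice 18 of the 33 members rose in leukemic against preleukemic samples, 1 fell and 14 were not called (limma, Benjamini-Hochberg adjusted p under 0.05). Over all genes tested 27.8% were called higher and 35.1% lower in this comparison. That balance turned with the scaling: 4354 genes were called higher and 5485 lower as deposited, 5066 and 3502 with each array centred on its median, and 4752 and 4005 with quantiles equalized again. The median log2 difference of the members was 1.37, against -0.05 over all genes. Of the classes, 4 of 5 primary granule genes rose, 8 of 12 secondary granule genes and 6 of 13 mature genes, while 0 of 3 transcription factors rose and 1 fell. An exact two-sided rank-sum test, which gives single high arrays less weight, called 14 members higher and 1 lower, against 27.4% and 34.8% of all genes. It did not call Elane, Ngp, Camp, Ltf, Lcn2, S100a8 and S100a9, in each of which leukemic Pax5+/- arrays 2, 7 and 9 lay within or below the preleukemic Pax5+/- range, and it added Cebpa, Ms4a3 and Cxcr2.

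Among the transcription factors, the member that fell was Gfi1, which encodes a zinc finger repressor needed for neutrophil formation and also used in B-cell and T-cell progenitors. Gfi1 ran from 6.55 through a median of 7.10 to 7.57 in leukemic Pax5+/- arrays and from 7.55 through 7.72 to 7.75 in preleukemic Pax5+/- arrays. Leukemic array 7, the highest, overlapped the lowest preleukemic arrays, and the other 9 leukemic arrays lay below them. The difference was -0.55 ± 0.11 (SE, adjusted p = 0.000211). In WT mice Gfi1 was 6.78, 7.13, 7.47 and 7.11 in leukemic arrays, against 7.59, 7.80 and 7.54 in preleukemic arrays, with no overlap (difference -0.52 ± 0.17 SE, limma adjusted p = 0.0213; -0.54 ± 0.20 SE, limma adjusted p = 0.0321 without preleukemic WT array 1). This WT call was lost without leukemic WT array 1 (-0.40, adjusted p = 0.0759), without preleukemic WT array 2 (-0.44, adjusted p = 0.102) and with each array centred on its median. Gfi1 is the only member that was not raised in preleukemic WT array 1 against the other 9 preleukemic arrays.

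Cebpa, which starts the granulocyte programme, and Cebpe, which is needed for secondary granules, were not called. Cebpa ran from 5.89 through 6.39 to 7.12 in leukemic Pax5+/- arrays and from 6.06 through 6.19 to 6.36 in preleukemic Pax5+/- arrays (difference 0.19 ± 0.13 SE, limma adjusted p = 0.203). Cebpe ran from 6.45 through 6.84 to 7.92 in leukemic Pax5+/- arrays and from 6.62 through 6.77 to 7.01 in preleukemic Pax5+/- arrays (difference 0.20 ± 0.20 SE, limma adjusted p = 0.403). Both groups overlapped for both genes. The high Cebpe values were those of leukemic Pax5+/- arrays 6 and 1, at 7.92 and 7.78, of leukemic WT array 1, at 7.84, and of preleukemic WT array 1, at 7.97.

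Of the primary granule genes, Ctsg, which encodes the serine protease cathepsin G, had the largest rise. Ctsg ran from 5.61 through a median of 8.50 to 10.79 in leukemic Pax5+/- arrays and from 5.66 through 5.70 to 5.99 in preleukemic Pax5+/- arrays, a difference of 2.71 ± 0.67 (SE, 6.55-fold, adjusted p = 0.00149). Only leukemic arrays 2 and 7, at 5.78 and 5.61, lay within or below the preleukemic range. Ctsg also parted from its class on single arrays. In leukemic Pax5+/- arrays 3 and 4 it lay 4.43 and 5.04 above its own preleukemic Pax5+/- mean, while Elane, which encodes neutrophil elastase, lay 1.25 and 1.47 above its own on the same arrays. In leukemic WT array 3 the same differences were 3.99 for Ctsg and 1.41 for Elane.

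Mpo, which encodes the myeloperoxidase that makes hypochlorous acid, ran from 5.71 through 7.77 to 10.68 in leukemic Pax5+/- arrays and from 5.82 through 5.98 to 6.22 in preleukemic Pax5+/- arrays. It rose by 1.99 ± 0.66 (SE, 3.97-fold, limma adjusted p = 0.0118). Elane ran from 6.25 through 8.16 to 10.83 in leukemic Pax5+/- arrays and from 6.84 through 6.94 to 7.07 in preleukemic Pax5+/- arrays. For both genes leukemic arrays 1 and 6 were highest and arrays 2 and 7 within or below the preleukemic range, as was array 9 for Elane. Elane rose by 1.37 ± 0.57 (SE, 2.59-fold, limma adjusted p = 0.0415), a call that leaving out any of 11 single arrays ended (adjusted p from 0.0539 to 0.0757). Prtn3, proteinase 3, rose by 1.28 ± 0.42 (SE, limma adjusted p = 0.0115). Ms4a3, a membrane protein of granulocyte and monocyte progenitors, differed by 0.77 ± 0.40 (SE, limma adjusted p = 0.0982), with 2 of 7 preleukemic arrays dim.

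**Figure D3:**
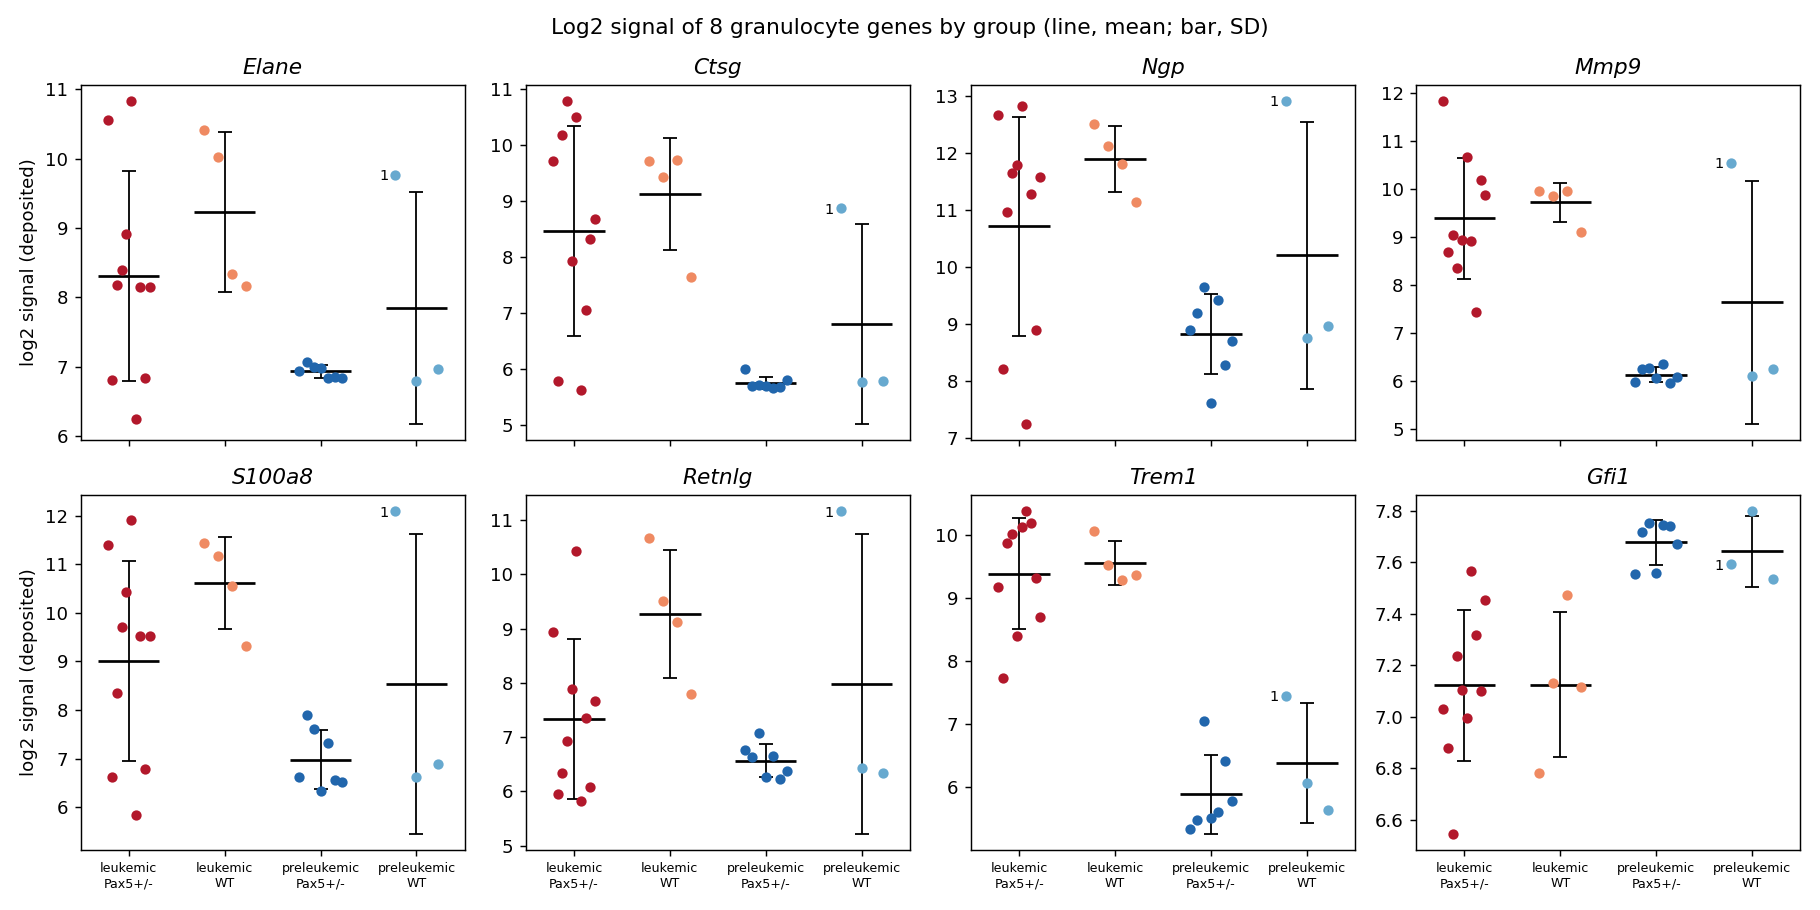
Each panel gives the log2 signal of a member on every array by group, with the mean as a line and the SD as a bar, and marks preleukemic WT array 1 with its number. Trem1 and Mmp9 are the panels in which all 10 leukemic Pax5+/- arrays lie above all 7 preleukemic Pax5+/- arrays, and Gfi1 is the panel in which leukemic arrays lie lower.

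Of the secondary granule class, Mmp9 behaved unlike the rest. Mmp9, the gelatinase of tertiary granules that macrophages also make, ran from 7.45 through a median of 9.00 to 11.84 in leukemic Pax5+/- arrays and from 5.97 through 6.10 to 6.36 in preleukemic Pax5+/- arrays. The groups did not overlap, and arrays 2, 7 and 9, which lacked a raised class median, had 8.70, 8.93 and 10.18. Mmp9 rose by 3.26 ± 0.55 (SE, 9.56-fold, limma adjusted p = 3.02e-05). Together with Trem1 it made 2 of 33 members whose leukemic Pax5+/- arrays all lay above the preleukemic Pax5+/- arrays, where 11.7% of all genes tested did so.

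The genes of the secondary granule proper tracked the class. Lcn2, the siderophore-binding lipocalin, ran from 7.12 through 11.34 to 12.94 in leukemic Pax5+/- arrays and from 7.16 through 8.66 to 9.33 in preleukemic Pax5+/- arrays, and rose by 2.18 ± 0.74 (SE, 4.54-fold, limma adjusted p = 0.0137). Ngp, the neutrophilic granule protein, ran from 7.25 through 11.43 to 12.82 in leukemic Pax5+/- arrays and from 7.61 through 8.90 to 9.64 in preleukemic Pax5+/- arrays (difference 1.89 ± 0.72 SE, limma adjusted p = 0.0272). In both genes 7 of the 10 leukemic arrays lay above all preleukemic Pax5+/- arrays, arrays 2 and 9 within their range and array 7 below it. The Ngp call was lost without leukemic Pax5+/- array 6 (1.66, adjusted p = 0.0503) and without preleukemic Pax5+/- array 4 (1.69, adjusted p = 0.0612).

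Ltf, the iron-binding lactoferrin, rose by 1.98 ± 0.74 (SE, limma adjusted p = 0.0251), and Camp, the precursor of the antimicrobial cathelicidin peptide, by 1.41 ± 0.58 (SE, limma adjusted p = 0.0388). The Camp call ended when any of 12 single arrays was left out, with adjusted p from 0.0501 to 0.0705. Hp, which encodes the haemoglobin-binding haptoglobin, rose by 1.88 ± 0.57 (SE, limma adjusted p = 0.00687), Pglyrp1, a peptidoglycan recognition protein, by 1.82 ± 0.64 (SE, limma adjusted p = 0.0176) and Olfm4, which marks a subset of neutrophils, by 0.95 ± 0.36 (SE, limma adjusted p = 0.0268). Hp was above all preleukemic Pax5+/- arrays in leukemic arrays 2 and 9 as well, at 6.88 and 6.77 against a highest preleukemic value of 6.73.

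The secondary granule members not called in Pax5+/- mice were Cd177, Fcnb, Chil3 and Mmp8. Cd177, a surface protein of neutrophils, differed by 0.65 ± 0.40 (SE, limma adjusted p = 0.157), and Fcnb, ficolin B, by 0.63 ± 0.31 (SE, limma adjusted p = 0.0784). Chil3, a chitinase-like protein, was dim on 7 of 7 preleukemic Pax5+/- arrays and ran from 4.81 to 8.89 in leukemic ones (at least 1.81-fold, limma adjusted p = 0.1). Mmp8, the neutrophil collagenase, was dim on 6 of 7 preleukemic arrays and ran from 4.64 to 10.03 in leukemic ones (limma adjusted p = 0.0809). Leukemic Pax5+/- arrays 2, 7 and 9 were dim for both Chil3 and Mmp8. Fcnb, Chil3, Mmp8 and Cxcr2 passed the threshold in this comparison once preleukemic WT array 1 was left out, with adjusted p of 0.0483, 0.0372, 0.0365 and 0.0245 at the same differences, since the 4 groups share 1 estimate of the spread.

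Of the mature class, Trem1, an activating receptor of neutrophils and monocytes, had the largest rise of the 33 members. Trem1 ran from 7.73 through 9.59 to 10.38 in leukemic Pax5+/- arrays and from 5.33 through 5.59 to 7.04 in preleukemic Pax5+/- arrays, and rose by 3.51 ± 0.36 (SE, 11.4-fold, limma adjusted p = 2.92e-08). Its highest value of all 24 arrays, 10.38, was in leukemic Pax5+/- array 7, in which Ngp, S100a8 and Ly6g lay below every preleukemic Pax5+/- array. Trem3, a related receptor that like Trem1 lies on chromosome 17, rose by 1.64 ± 0.48 (SE, 3.12-fold, limma adjusted p = 0.00521). Trem3 was 6.40 in leukemic Pax5+/- array 2, within the preleukemic Pax5+/- range of 6.16 to 6.90, and above that range in the other 9 leukemic arrays.

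S100a8 and S100a9 encode the subunits of calprotectin, an abundant cytosolic protein of neutrophils. S100a8 ran from 5.85 through 9.52 to 11.90 in leukemic Pax5+/- arrays and from 6.34 through 6.63 to 7.90 in preleukemic Pax5+/- arrays (difference 2.03 ± 0.82 SE, limma adjusted p = 0.0362). S100a9 ran from 5.97 through 9.21 to 11.81 in leukemic Pax5+/- arrays and from 6.26 through 6.66 to 7.37 in preleukemic Pax5+/- arrays (difference 2.00 ± 0.82 SE, limma adjusted p = 0.0395). Array 7 had the lowest leukemic value of both. Leaving out any of 10 arrays for S100a8 and of 12 for S100a9 moved the adjusted p to between 0.0506 and 0.067 and to between 0.05 and 0.073.

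Anxa1, the phospholipid-binding annexin that limits neutrophil recruitment, rose by 1.87 ± 0.45 (SE, 3.66-fold, limma adjusted p = 0.00117), and Ltb4r1, a leukotriene B4 receptor, by 0.37 ± 0.13 (SE, limma adjusted p = 0.0192). The surface genes most used to define mature neutrophils did not pass the threshold. Ly6g, the surface antigen by which mouse neutrophils are sorted, ran from 5.29 through 8.43 to 12.04 in leukemic Pax5+/- arrays and from 5.78 through 6.74 to 7.47 in preleukemic Pax5+/- arrays (difference 1.62 ± 0.88 SE, limma adjusted p = 0.113). Cxcr2, the chemokine receptor that releases neutrophils from marrow, was dim on 7 of 7 preleukemic Pax5+/- arrays and ran from 4.64 to 8.95 in leukemic ones (at least 1.54-fold, limma adjusted p = 0.0671). Retnlg (0.77 ± 0.66), the G-CSF receptor gene Csf3r (0.61 ± 0.43), the integrin gene Itgam (0.57 ± 0.45), the histone deiminase gene Padi4 (0.23 ± 0.18) and the histidine decarboxylase gene Hdc (0.15 ± 0.23; log2 difference ± SE) were not called either, with limma adjusted p from 0.217 to 0.592.

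Genes of the same cells outside the 33 members were tested too. The counts below stand beside 27.8% of all genes tested called higher and 35.1% lower in Pax5+/- mice. In WT mice these shares were 18.7% and 20.4%, and without preleukemic WT array 1 they were 19.1% and 26%. Of 5 genes of the NADPH oxidase, the enzyme with which neutrophils make superoxide, 3 rose in leukemic against preleukemic Pax5+/- samples and 1 fell. The risers were Ncf1 (1.74 ± 0.32), Cybb (1.05 ± 0.35) and Ncf4 (0.46 ± 0.11; log2 difference ± SE), with limma adjusted p of 7.01e-05, 0.0135 and 0.000839. Of 17 other neutrophil genes 8 rose and 0 fell, led by Ifitm6 (3.11 ± 0.80, limma adjusted p = 0.00201), Alox5ap (2.51 ± 0.27, limma adjusted p = 7.81e-08) and Lrg1 (2.40 ± 0.30, limma adjusted p = 5.31e-07). In WT mice 0 oxidase genes rose and 2 fell, Cyba and Rac2, and 4 of the 17 other neutrophil genes rose. Without preleukemic WT array 1 these counts were 2 risen and 1 fallen oxidase gene and 7 risen neutrophil genes.

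Markers of other marrow cells were counted in the same stage comparisons. Over all genes tested, limma called 27.8% higher and 35.1% lower in Pax5+/- mice, and 18.7% and 20.4% in WT mice. Without preleukemic WT array 1 the WT shares were 19.1% and 26%. In Pax5+/- mice 11 of 16 monocyte and macrophage genes rose and 2 fell, 7 of 7 megakaryocyte and platelet genes and 15 of 15 mitosis genes rose, 0 of 9 eosinophil, basophil and mast cell genes were called by limma (2 had an unadjusted p under 0.05), 1 of 8 erythroid genes rose and 1 fell, and 8 of 11 B-lineage genes fell. In WT mice the counts were 5 risen and 2 fallen of 16 monocyte and macrophage genes, 7 of 7 platelet genes, 14 of 15 mitosis genes, 3 of 9 eosinophil, basophil and mast cell genes and 6 of 8 erythroid genes risen, and 8 of 11 B-lineage genes fallen. Without preleukemic WT array 1 they were 9 risen and 1 fallen of 16 monocyte and macrophage genes, 7 of 7 platelet genes, 15 of 15 mitosis genes, 3 of 9 eosinophil, basophil and mast cell genes and 7 of 8 erythroid genes risen, and 8 of 11 B-lineage genes fallen. The mean over the monocyte and macrophage genes ran from 7.23 to 9.38 in leukemic Pax5+/- arrays, from 7.73 to 8.48 in leukemic WT arrays and from 6.60 to 6.99 in preleukemic Pax5+/- arrays, and was 8.00, 6.87 and 6.94 in preleukemic WT arrays. Their part in the granulocyte values was not tested.

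Leukemic Pax5+/- arrays 2, 7 and 9 were low in most granulocyte genes, but above every preleukemic Pax5+/- array in Mmp9 and Trem1. Within the leukemic Pax5+/- group, Trem1 was lowest in array 2, at 7.73, and highest in array 7, at 10.38. Mmp9 was 8.70, 8.93 and 10.18 in arrays 2, 7 and 9, against a group median of 9.00. The counts by array that follow describe the members only, since the same shares over all genes were not counted. In the stage comparison of Pax5+/- mice limma called 27.8% of all genes tested higher and 35.1% lower. Of the 33 members, array 2 had 4 above every preleukemic Pax5+/- array (Cebpa, Mmp9, Hp and Trem1), 20 within their range and 9 below it. Array 7 had 6 above (Cebpa, Mmp9, Cxcr2, Ltb4r1, Trem1 and Trem3), 13 within and 14 below. Array 9 had 9 above (Mpo, Prtn3, Ctsg, Mmp9, Hp, Pglyrp1, Trem1, Trem3 and Anxa1), 16 within and 8 below. The other 7 leukemic Pax5+/- arrays had from 24 to 32 members above. Beside this, the mean over 16 monocyte and macrophage genes was 7.57, 7.64 and 8.11 in arrays 2, 7 and 9, against 6.60 to 6.99 in preleukemic Pax5+/- arrays, and the mean over 7 megakaryocyte and platelet genes was 8.43, 10.66 and 9.68, against 6.35 to 6.51. The part of these other cell types in the Mmp9 and Trem1 values was not tested.

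In WT mice all 4 leukemic arrays were raised, but the test against 3 preleukemic arrays called few members. With all arrays, 1 of 33 members rose (Trem1), 1 fell (Gfi1) and 31 were not called, where 18.7% of all genes tested were called higher and 20.4% lower. Over all genes the balance again turned with the scaling, from 2924 called higher and 3191 lower as deposited to 3379 and 2177 with each array centred on its median. Trem1 was 10.06, 9.53, 9.29 and 9.37 in leukemic WT arrays, against 7.45, 6.06 and 5.63 in preleukemic WT arrays (difference 3.18 ± 0.55 SE, 9.07-fold, limma adjusted p = 0.000118), and without preleukemic WT array 1 the difference was 3.72 ± 0.59 (SE, limma adjusted p = 4.34e-05). It did not overlap, and it was the only member raised without overlap when all 3 preleukemic WT arrays were used, where 18.9% of all genes tested were.

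Without preleukemic WT array 1, 21 of the 33 members rose, 1 fell and 11 were not called, where 19.1% of all genes tested were called higher and 26% lower. The array was set aside for its high values of these same genes, so the gain in calls follows in part from that choice and is given as a description. The risers were 3 of 5 primary granule, 9 of 12 secondary granule and 9 of 13 mature genes, and the median log2 difference of the members was 2.41, against 1.17 with the array. In 27 of 33 members both remaining preleukemic WT arrays then lay below all 4 leukemic WT arrays, as in 25.9% of all genes tested. S100a8 was 11.44, 11.18, 10.55 and 9.31 in leukemic WT arrays, against 6.63 and 6.90 in preleukemic WT arrays 2 and 3 and 12.09 in array 1. Its difference was 3.86 ± 1.23 (SE, limma adjusted p = 0.0154) without array 1 and 2.08 ± 1.27 (SE, limma adjusted p = 0.2) with it. Ly6g was 10.94, 10.10, 10.52 and 8.88 in leukemic WT arrays, against 6.47 and 6.09 in arrays 2 and 3 and 11.88 in array 1 (3.83 ± 1.33 SE, limma adjusted p = 0.0243 without array 1, and 1.96 ± 1.37 SE, limma adjusted p = 0.26 with it).

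The same held for each granule class. Mpo was 10.19, 9.52, 7.78 and 7.55 in leukemic WT arrays, against 6.09 and 6.14 in preleukemic WT arrays 2 and 3 and 9.85 in array 1. Its difference was 2.65 ± 1.03 (SE, limma adjusted p = 0.0417) without array 1 and 1.40 ± 1.02 (SE, limma adjusted p = 0.279) with it. Lcn2 was 12.60, 12.59, 12.21 and 11.24 in leukemic WT arrays, against 8.67 and 8.77 in arrays 2 and 3 and 12.94 in array 1, with 3.44 ± 1.16 (SE, limma adjusted p = 0.0202) without array 1 and 2.03 ± 1.14 (SE, limma adjusted p = 0.161) with it. Chil3, Mmp8 and Cxcr2, dim in both arrays 2 and 3, were among the risers. These 3 genes passed the filter through the arrays where they were high, so their calls are given as a description. Prtn3, Ms4a3, Camp, Fcnb, Olfm4, Csf3r, Padi4, Ltb4r1, Itgam, Cebpa and Cebpe were not called in WT mice with or without array 1.

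**Figure D4:**
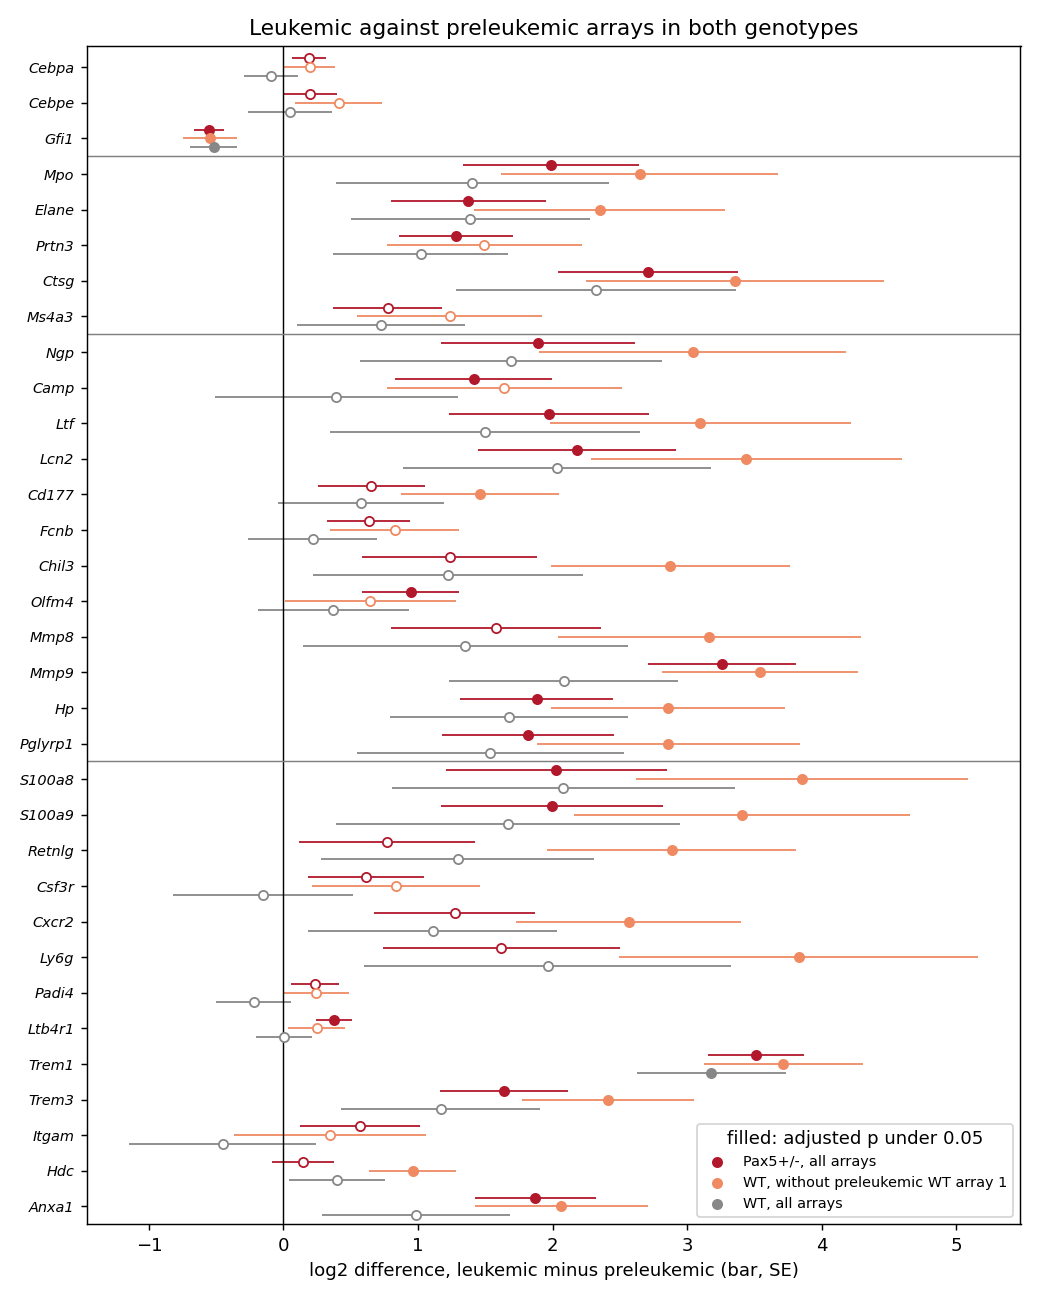
Points are log2 differences, leukemic minus preleukemic, with SE bars, for Pax5+/- mice and for WT mice without and with preleukemic WT array 1, and filled points have an adjusted p under 0.05. The WT estimates with all arrays are filled for Trem1 and Gfi1 only, and those without array 1 for 22 members.

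Preleukemic WT array 1 had granulocyte levels like those of the highest leukemic arrays. It lay above all 9 other preleukemic arrays in 32 of 33 members, the exception being Gfi1, where 17.7% of all genes tested did so. It lay above all 14 leukemic arrays as well in 13 members, where 2.74% of all genes tested did so: 7 of 13 mature, 5 of 12 secondary granule, 1 of 3 transcription factors and 0 of 5 primary granule genes. Retnlg, a resistin-like secreted protein, was 11.16 in this array, against 10.43 in the highest leukemic Pax5+/- and 10.67 in the highest leukemic WT array. Csf3r was 8.65, against 8.18 and 7.41, and Itgam 9.56, against 9.33 and 8.13. Elane, at 9.77, lay below 10.83 and 10.42, the highest leukemic Pax5+/- and WT values. The class medians of the array were 2.84 for primary granule, 4.18 for secondary granule and 3.55 for mature genes above the preleukemic Pax5+/- mean, while leukemic Pax5+/- array 6 had 3.90, 4.13 and 3.70 and leukemic WT array 1 had 3.49, 3.69 and 2.97. Whether the order of the classes differs between these arrays was not tested.

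Trem1 set preleukemic WT array 1 apart from the leukemic arrays. Its value of 7.45 was above those of the other 9 preleukemic arrays but below all 14 leukemic arrays, the lowest of which had 7.73. Mmp9, at 10.56, lay within the leukemic range. Genes of other cells moved in this array too. Its mean over 18 other neutrophil genes was 8.08, against 6.18 and 6.28 in arrays 2 and 3, over 16 monocyte and macrophage genes 8.00, against 6.87 and 6.94, over 8 erythroid genes 8.35, against 6.65 and 6.64, over 12 eosinophil, basophil and mast cell genes 6.23, against 5.37 and 5.35, and over 15 mitosis genes 9.88, against 7.90 and 8.09. Its B-lineage mean was 11.02, against 11.37 and 11.42. The named macrophage and platelet genes did not all follow. Mpeg1, a pore-forming protein of macrophages, was 10.66, against 6.08 and 6.87, and Csf1r, the receptor for their growth factor, 7.85, against 6.49 and 6.48. C1qb, a complement subunit made by macrophages, was 6.67, against 6.76 and 6.30, Vcam1 was 6.46, against 6.08 and 6.49, and the platelet chemokine gene Ppbp was 6.12, against 6.10 and 6.40. The part of these cells in the array's granulocyte values was not tested.

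The other 9 preleukemic arrays were not alike in every member. The SD over the 7 preleukemic Pax5+/- arrays was 0.73 for Lcn2, 0.70 for Ngp, 0.62 for Trem1, 0.61 for S100a8 and 0.57 for Ly6g, while it was 0.16 for Mpo, 0.11 for Ctsg and 0.09 for Elane. In the same order, the means over these arrays were 8.47, 8.82, 5.88, 6.98 and 6.64, and 6.01, 5.74 and 6.93. The part of signal level in these SDs was not tested. Lcn2 was lowest in array 4, at 7.16, and highest in array 3, at 9.33. Ngp and Ly6g had their lowest and highest values in the same arrays, 7.61 and 9.64 for Ngp and 5.78 and 7.47 for Ly6g. Of the 33 members 13 were highest in array 3 and 11 in array 2, and 12 were lowest in array 4. The same counts over all genes were not made, so these describe the members only. Trem1 also differed between these arrays, with 7.04 in array 3 and 6.42 in array 6 and from 5.33 to 5.77 in the other 5.

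Genotype was compared within each stage. In leukemic samples limma called 0 of 33 members between Pax5+/- and WT mice, where it called 0.16% of all genes tested. The exact rank-sum test called 0 members and 0 of all genes tested, so its result says nothing of the members in particular. Unadjusted, 2 members, Retnlg and Hdc, had a limma p under 0.05. Without preleukemic WT array 1, which enters the shared estimate of the spread, limma called 0 members and 0.179% of all genes tested, and 5 members had an unadjusted p under 0.05, with Chil3, Mmp8 and Cxcr2 added and a smallest adjusted p of 0.102 for Hdc, against 0.279 with the array. Leukemic Pax5+/- arrays were on average lower in 31 of the 33 members, with a median difference of -0.67 over the members and -0.0006 over all genes tested. The members largely moved together across arrays, so these 31 are not separate observations. Retnlg averaged 7.34 ± 1.47 (SD, n = 10) in leukemic Pax5+/- arrays and 9.28 ± 1.18 (SD, n = 4) in leukemic WT arrays, with overlap (difference -1.94 ± 0.79 SE, limma adjusted p = 0.506). Hdc was 5.91, 6.15 and 7.29 at the lowest, median and highest leukemic Pax5+/- array, against 7.99, 7.27, 6.88 and 6.36 in leukemic WT arrays (difference -0.88 ± 0.28 SE, limma adjusted p = 0.279). Differences of the other members lay between -1.85 for Ly6g and 0.17 for Olfm4, with SEs of up to 1.06.

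Erythroid genes were lower in leukemic Pax5+/- arrays as well. Their mean over 8 genes ran from 5.99 through 6.62 to 7.09 in leukemic Pax5+/- arrays, and was 9.50, 9.22, 6.99 and 7.76 in leukemic WT arrays 1 to 4. Of the 8 genes 3 were called lower by limma and all 8 had an unadjusted p under 0.05. The 3 were Car1, a carbonic anhydrase of red cell precursors (-3.31 ± 0.58, adjusted p = 0.0221), Slc4a1, the anion exchanger of the red cell membrane (-2.86 ± 0.57, adjusted p = 0.045), and Klf1, an erythroid transcription factor (-0.88 ± 0.16, adjusted p = 0.0357; log2 difference ± SE). The count was 0 without leukemic WT array 1 or 2, 7 without leukemic WT array 3, and 1 to 3 without any other single array. It was also 0 in the fit of only the groups compared, with a replicate block and by the exact rank-sum test. Over all genes tested these settings called 1 higher and 0 lower, 1 and 1, and 0 and 0. A count of 0 there therefore says little about the erythroid genes. Without leukemic WT array 2 limma called 1 gene higher and 0 lower over all genes, and without leukemic WT array 1 it called 15 and 8. Leukemic WT arrays 1 and 2, the highest in erythroid genes, also had the highest secondary granule medians of the 4. The part of erythroid cells in the granulocyte values was not tested.

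In preleukemic samples 0 of 33 members were called by limma between Pax5+/- and WT mice, where 0.786% of all genes tested were, and 4 members, Csf3r, Padi4, Itgam and Anxa1, had an unadjusted p under 0.05. With array 1, Pax5+/- arrays averaged lower in 32 of 33 members, by up to 1.96 for Mmp8. The median difference was -1.17 over the members and -0.01 over all genes tested, and here too the members are not separate observations. Without array 1 the differences ran from -0.69 for Itgam to 0.36 for Ly6g, 0 members were called by limma, where 0.978% of all genes tested were, and 0 had an unadjusted p under 0.05. Pax5+/- arrays were then lower without overlap in 4 of 33 members, Prtn3, Fcnb, Csf3r and Itgam, where 9.08% of all genes tested were. That count is near the share over all genes, so it says nothing of the members in particular. Itgam was 6.20, 6.50 and 6.68 for the lowest, median and highest preleukemic Pax5+/- array, against 7.12 and 7.21 in preleukemic WT arrays 2 and 3 and 9.56 in array 1.

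The leukemic against preleukemic difference itself was compared between genotypes. With all arrays 0 of 33 members were called by limma and 0 had an unadjusted p under 0.05, where 0.185% of all genes tested were called, and the differences ran from -0.52 for Retnlg to 1.17 for Mmp9 with SEs of up to 1.63. Without preleukemic WT array 1 they ran from -2.21 for Ly6g to 0.30 for Olfm4, 0 members were called by limma, where 0.307% of all genes tested were, and Hdc alone had an unadjusted p under 0.05. The median over the members was 0.28 with the array and -0.66 without it. A missed threshold at these SEs does not show that the genotypes act alike.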

How the data were processed

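Total RNA went onto 24 one-colour Affymetrix mouse gene arrays after Trizol extraction, per the labels' protocols. Per the submitters' processing notes, the authors used oligo, an R package, to run RMA, which corrects background, equalizes quantiles across arrays and condenses probes to a log2 value, and which shrinks differences of dim genes. What was deposited is this log2 signal for 35556 probe sets, from 3.48 to 14.20, with no gaps. Tool versions and any batch adjustment are not given in the labels. The number of arrays limits the precision.

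The members and gene lists were chosen with earlier results of these data known, so their direction is no independent evidence. Names came from the platform table: 21789 probe sets have 1 symbol, 1621 several and 12146 none here, and for 999 genes the highest-mean probe set was taken. Testing needed a value at the 30th percentile of its array or above on 3 arrays, which kept 15647 genes, all 33 members included, and set 4291 aside. Chil3 and Cxcr2, dim on every preleukemic array except WT array 1, passed through the arrays where they were high. So did Mmp8, dim on every preleukemic array except WT array 1 and Pax5+/- array 3. For a gene dim throughout its lower group, each dim value was raised to the dim level of its array, so that the fold is a lower bound.

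The limma 3.58.1 fit (R 4.3.3) held 4 group means over 24 arrays, with eBayes moderation by 2.29 prior on top of 20 residual degrees of freedom, two-sided p-values and Benjamini-Hochberg adjustment over all genes tested. The labels call samples biological replicates. The highest correlation between arrays was 0.994, and none was counted as a duplicate. All members are named. The rule for names also took in up to 3 called genes with the largest difference (or, with none called, the 2 of smallest p) per comparison from each of the 8 other lists (108 genes, 92 measured, 88 tested), of which the text names those beside a granulocyte result and gives the rest by counts, and the 5 genes nearest each class by Pearson correlation. Promoters came from RefSeq on GRCm38.p6. Alternatives were other moderation, filters, scaling, probe set summary, array weights, fits of only the groups compared, a rank-sum test, a replicate block and leaving out each array.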

Additional observations from a re-analysis of the deposited data

Results flagged for a closer look

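In 99 tests of members within groups of 4 to 10 arrays, 8 single values lay far from the rest of their group by Dixon's criterion. Chance flags about 1 in 20. Several of the values fell on the same array, and members largely moved together across arrays, so the tests are not independent. In leukemic Pax5+/- array 6, Olfm4 was 9.35, against 7.71 in the next array, Padi4 6.67, against 6.02, and Hdc 7.29, against 6.50. In leukemic Pax5+/- array 1, Cebpa was 7.12, against 6.50 in the next array. In leukemic WT array 4, Ctsg was 7.64 and Mmp9 9.12, below the next lowest values of 9.42 and 9.85. In preleukemic Pax5+/- array 1, Ctsg was 5.99, against 5.79 in the next array, and in preleukemic Pax5+/- array 4, Olfm4 was 6.38, against 6.09. The preleukemic WT group, with 3 arrays, was not tested in this way.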

How the results depend on the processing

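In the Pax5+/- stage comparison the count of members called higher was 18, ran from 13 to 22 when single arrays were left out and from 14 to 23 under 10 other settings, and the count called lower stayed at 1 (Gfi1) under all of them. In the WT stage comparison the count called higher was 1 and became 2, with Mmp9 added, under the stricter filter and with a replicate block. It ran from 1 to 21 when single arrays were left out, with 21 without preleukemic WT replicate 1 and 2 without leukemic Pax5+/- replicate 1, without leukemic Pax5+/- replicate 8 (Mmp9 each time) and without leukemic WT replicate 4 (Ctsg). The count called lower was 1 and became 0 with each array centred on its median, and ran from 0 to 1 when single arrays were left out, 0 without leukemic WT replicate 1 and without preleukemic WT replicate 2. The cause was not tested. The genotype comparisons and the difference of the stage differences kept 0 members called by limma under every setting run. The replicate numbers do not pair the samples: of 24 same-numbered pairs in different groups 4 had a correlation of deviations over 0.1 (range -0.36 to 0.32), and 1 of 21 arrays correlated best with its own number. With the replicate block 23 members were called higher in the Pax5+/- stage comparison, while over all genes tested 4008 were, against 4354 in the main fit. Over all genes this count ran from 4180 to 4401 with single arrays left out and from 4008 to 5066 under the 10 other settings. In the WT stage comparison the count over all genes was 2924 in the main fit. It ran from 2016 to 3044 with single arrays left out, and was 2981 without preleukemic WT replicate 1. Rescaling moved the median difference of all genes by less than 0.1. The compression of log2 signals near background limits the dim genes Chil3, Mmp8 and Cxcr2.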

Other observations

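The genes most like each class over the 24 arrays were largely the same for the 3 classes. By Pearson correlation with the class mean, as a description over arrays that share their groups, the nearest genes outside the members were Pilra (0.966), Lbp (0.961), Igsf6 (0.948), Ifitm6 (0.947) and Lilr4b (0.945) for the primary granule class. For the secondary granule class they were Chil1 (0.986), Igsf6 (0.978), Pilra (0.971), Anxa3 (0.963) and Ifitm6 (0.962), and for the mature class Chil1 (0.982), Igsf6 (0.963), Pilra (0.956), C5ar1 (0.952) and Ifitm6 (0.949). Chil1, a chitinase-like protein, ran from 6.09 to 11.08 over the arrays, and C5ar1, the receptor for the complement fragment C5a, from 5.18 to 7.42. Of the 33 members 13 had their highest value of all 24 arrays in leukemic Pax5+/- array 6, 13 in preleukemic WT array 1 and 3 in leukemic Pax5+/- array 1. Over all genes tested the share was 2.74% for preleukemic WT array 1, and it was not counted for the leukemic arrays. In 26 of 33 members all 4 leukemic WT arrays lay above the 9 preleukemic arrays other than preleukemic WT array 1, as in 18.7% of all genes tested.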
